A study of Mus musculus with 6 samples.

Results

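The transient receptor potential (TRP) channels of mouse sensory ganglia were examined in 6 RNA-seq libraries of dorsal root ganglia (DRG), where the cell bodies of the neurons that sense touch, temperature and pain lie. The genes were chosen by name: Trpm8, Trpv1, Trpa1, Trpm3, Trpc5, Trpv2, Trpm2, Trpm4 and Trpm7, which makes 9 of the 54242 gene symbols in the table, with 72 of its 140992 transcripts. 3 libraries came from mice kept on intermittent fasting for 10 days (fasted) and 3 from mice fed ad libitum (fed). All were male C57bl/6 mice aged 8-10 weeks, with no mutant allele named in the labels, and only ganglia of the lumbar levels L4-6 were used. The labels record that animals were killed after 24 hours without saying what that interval follows, so the feeding state at that moment is not given. The ganglia were digested with Dispase II, Collagenase II and papain and spun on a 15% BSA gradient that enriches neurons but leaves other cells. Whether each replicate is an animal or a pool of animals, and whether replicates share animals, is not stated. If replicates share animals, the spread that the p-values rest on may be partly technical.

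TRP channels are cation channels of the cell membrane, and several of them are the molecular thermometers and irritant detectors of sensory nerve endings. Opened by heat, cold, plant compounds or lipid signals, they let sodium and calcium into the ending and bring the neuron towards firing. In DRG, Trpv1 and Trpa1 are known as channels of nociceptors, and Trpm8 as the channel of a small class of cold-sensing neurons. Others of the family, among them Trpm4 and Trpm7, are found in many cell types and are not specific to sensory neurons.

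All 9 genes were detected in all 6 libraries, and none passed the test of fasted against fed mice after adjustment. Values are TPM, a unit per length of transcript, which scales each library to a sum of 1000000. Read depth cannot be recovered from TPM, so it is unknown here and counting intervals are not given. Of the 9 genes, 8 averaged at least 1 TPM and were tested with limma on log2(TPM + 1) over 15097 genes; Trpc5 lay below that level. With Benjamini-Hochberg adjustment 0 of the 8 passed 0.05, where 0.00662% of all tested genes did, a single gene. At an unadjusted p under 0.05, 1 of the 8 passed (Trpm8), against 9.94% of all tested genes (6.72% higher and 3.22% lower in fasted libraries). Higher estimates in fasted libraries were seen for 5 of the 8 and lower ones for 3, against 62.52% higher among all tested genes. Their median log2 fold change was 0.02, beside 0.03 for all tested genes. Directions here and in the lists below are on the TPM scale and depend on it. Median-of-ratios scale factors were 1.0053 to 1.0205 in fasted and 0.9737 to 0.9978 in fed libraries. With median-of-ratios scaling the median of the tested channels was -0.01, and with quantile normalization it was -0.0029. Summed over the 9 genes, the fasted libraries held 281.8, 300.9 and 276.2 TPM and the fed libraries 300.7, 265.5 and 273.5 TPM, ranges that overlap.

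**Figure D1:**
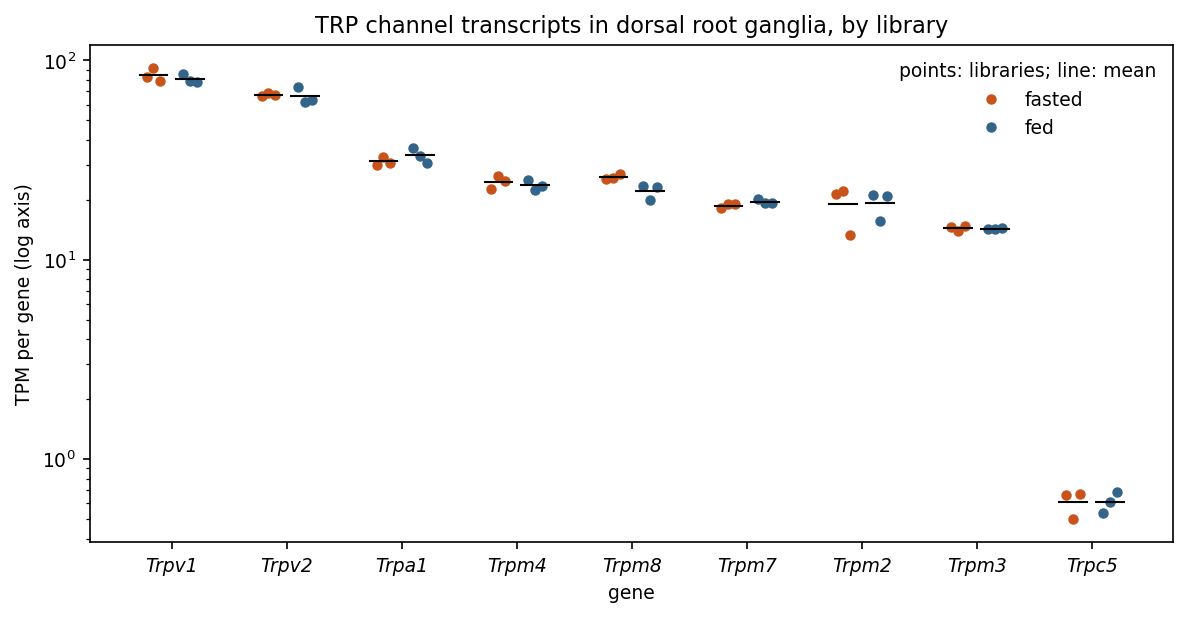
Level of each TRP channel gene in TPM (vertical log axis) by gene, with fasted libraries left of fed ones; points are libraries and lines are group means (n = 3 each). Trpv1 stands highest at a mean of 82.7 TPM, Trpc5 lowest at 0.610 TPM, and only for Trpm8 and Trpm7 do the groups not overlap.

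The libraries carried the markers of neurons and of several other ganglion cells. The 12 pan-neuronal genes, led by Uchl1 and Tubb3, summed to 15314-15686 TPM in fasted and 13982-15432 TPM in fed libraries, with higher estimates in fasted libraries for 12 of 12 and 0 of them past adjustment. Peptidergic nociceptor genes (6, led by Calca and Tac1) summed to 3829-4012 TPM in fasted and 3677-4599 TPM in fed libraries, non-peptidergic ones (8, led by P2rx3 and Scn11a) to 739-799 TPM in fasted and 714-819 TPM in fed libraries, and large-fibre ones (6, led by Nefh and Ldhb) to 2543-2857 TPM in fasted and 2645-2798 TPM in fed libraries. Glial genes were also abundant, with Schwann cell sums (6 genes) of 7367-8180 TPM in fasted and 7083-7914 TPM in fed libraries, and satellite glia sums (6 genes, led by Apoe and Fabp7) of 5669-5894 TPM in fasted and 5659-6418 TPM in fed libraries. Macrophage genes (13, led by Lyz2 and C1qa) summed to 116.0-134.7 TPM in fasted and 160.3-190.9 TPM in fed libraries, lower in fasted libraries for 13 of 13 with 0 past adjustment. Of the 13, 10 were lower with an unadjusted limma p under 0.05, against 3.22% of all tested genes. The groups were apart in this direction for 10, against 5.07% of all tested genes. Endothelial sums (8 genes, led by Cldn5 and Emcn) were 72.0-85.9 TPM in fasted and 84.6-99.6 TPM in fed libraries. Lower estimates in fasted libraries were found for 7 of the 8, with an unadjusted limma p under 0.05 for 5 and groups apart for 4, and 1 was higher. Of all tested genes, 3.22% were lower with such a p and 5.07% were apart and lower. Among the 7 mural genes, 7 had lower estimates in fasted libraries, with such a p for 1 and groups apart for 1. In both lists 0 passed adjustment. Mural sums (7 genes, led by Rgs5 and Tagln) were 144-183 TPM in fasted and 175-177 TPM in fed libraries, and fibroblast sums (6 genes, led by Dcn and Col1a2) 721-788 TPM in fasted and 706-776 TPM in fed libraries. Globin and other erythroid genes (5, led by Hbb-bs and Hba-a2) summed to 1715-3277 TPM in fasted and 1284-1564 TPM in fed libraries. All 5 were higher in fasted libraries, with groups apart and an unadjusted limma p under 0.05, and 0 passed adjustment. Of all tested genes, 12.7% were apart and higher, and 6.72% were higher with such a p. Skeletal muscle genes (8, led by Acta1 and Tnnt3) summed to 53.0-242.2 TPM in fasted libraries and to 214.3, 2890 and 296.3 TPM in fed libraries 1 to 3, so that fed library 2 stood apart. Their estimates were lower in fasted libraries for 8 of 8, with such a p for 0 and groups apart for 1. Pvalb, of the large-fibre list, had 542.9 TPM in fed library 2, against 197.4 to 234.9 TPM in the other libraries. It enters the large-fibre sum of 2798 TPM in fed library 2, and the part of muscle RNA in that sum was not tested. None of the genes of these cell type lists was at 0 in all libraries. In RNA from whole preparations, fewer cells of a type and less RNA per cell cannot be told apart.

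Trpm8, the channel opened by cool temperatures and menthol, had the largest estimated difference of the 8 tested genes as reported. It had 25.4, 25.8 and 26.8 TPM in fasted libraries 1 to 3, against 23.5, 19.9 and 23.2 TPM in fed libraries 1 to 3. The groups do not overlap: each fasted library lay above each fed one, and fed library 2 was the lowest of the 6. Groups apart in this direction were found for 12.7% of all tested genes, and for 17.8% in either direction. The means were 26.0 ± 0.768 TPM in fasted and 22.2 ± 2.01 TPM in fed libraries (SD, n = 3 each), a log2 fold change of 0.22 with an SE of 0.07 and a 95% interval of 0.06 to 0.39. On that scale the fold was 1.17 (95% interval 1.04 to 1.31). limma gave an unadjusted p of 0.0152 and an adjusted p of 0.476, so the difference did not pass. In all, 3.15% of tested genes had a p at or below that of Trpm8, which ranked 475 of 15097. The exact permutation test, two-sided, gave p = 0.1, the smallest that 3 against 3 libraries allow.

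Fed library 2, where Trpm8 was lowest, also held the lowest pan-neuronal sum (13982 TPM) and the highest skeletal muscle sum. Without this library the log2 fold change of Trpm8 was 0.15, with an unadjusted limma p of 0.0232 and an adjusted p of 0.673. Without fasted library 3 it was 0.20, with an unadjusted limma p of 0.0517. Scaling each library to its pan-neuronal genes left a log2 fold change of 0.15 with an adjusted limma p of 0.551. Trpm8 did not have the largest estimate in size under 2 alternatives: Trpm2 was at -0.17 without fed library 2, and Trpa1 at -0.16 with pan-neuronal scaling. Under all 19 alternatives the estimate stayed above 0, between 0.15 and 0.26, with adjusted limma p between 0.383 and 0.747. What part macrophage, muscle or erythroid RNA has in the difference was not tested.

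**Figure D2:**
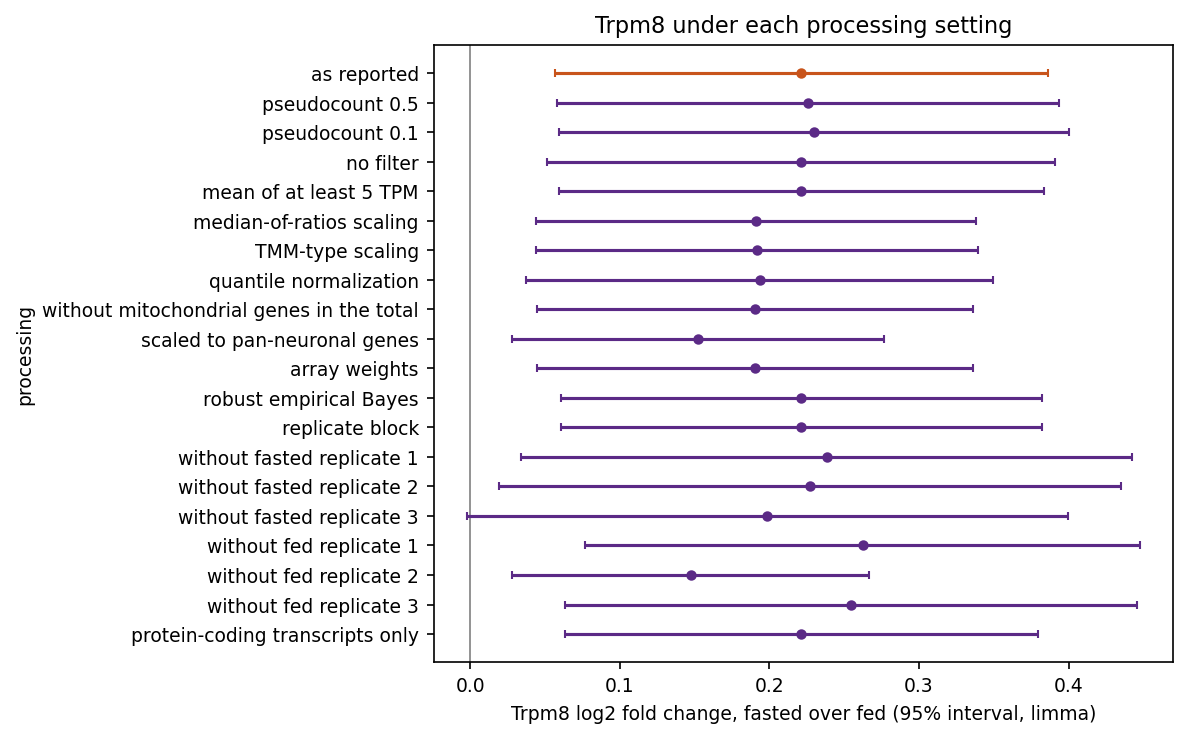
Trpm8 log2 fold change, fasted over fed (horizontal axis), as reported and under 19 alternative settings (rows); points are limma estimates and bars 95% intervals. All estimates lie between 0.15 and 0.26, and the interval reaches 0 without fasted replicate 3.

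Set against other TRP genes of the same library, the ratio of Trpm8 to Trpa1 was 0.849, 0.784 and 0.875 in fasted libraries and 0.644, 0.601 and 0.761 in fed libraries, with no overlap (exact permutation p = 0.1, the smallest possible). The ratio to Trpv1 was 0.307, 0.280 and 0.341 in fasted and 0.274, 0.252 and 0.298 in fed libraries, where the groups do overlap (exact permutation p = 0.2). Of the 8 such ratios, those to Trpv2, Trpa1, Trpm3 and Trpm7 were apart and those to Trpv1, Trpm2, Trpm4 and Trpc5 overlapped. These ratios were looked at after the values were seen, and all share the Trpm8 values, which were already apart. They are therefore no independent support for a difference in Trpm8. How often such ratios are apart over all genes was not measured. Trpm8 lies at chr1:88277661-88389293 on the plus strand of GRCm38, and its transcript Trpm8-201 made up 97.2% of the gene in fasted and 97.0% in fed libraries. At the transcript level Trpm8-201 had 24.8, 25.2 and 25.8 TPM in fasted and 22.7, 19.4 and 22.4 TPM in fed libraries, the lone one of 20 tested TRP channel transcripts with an unadjusted limma p under 0.05 (unadjusted p of 0.0184, adjusted p of 0.671), where 7.21% of all tested transcripts had one. None of the 20 passed adjustment, as 0.0271% of all 33197 tested transcripts did. An opposite-strand gene, 4930453O03Rik, shares 388 exonic bases with Trpm8 but was at 0 TPM.

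Trpv1, the receptor for noxious heat, acid and capsaicin, was the most abundant of the 9 genes. It had 82.7, 92.0 and 78.6 TPM in fasted libraries, against 85.8, 78.8 and 78.0 TPM in fed libraries, and the groups overlap. The means were 84.5 ± 6.86 TPM in fasted and 80.9 ± 4.28 TPM in fed libraries (SD, n = 3 each), a log2 fold change of 0.06 (95% interval -0.09 to 0.21) with an adjusted limma p of 0.738. At chr11:73234292-73261242 on the plus strand, the gene is listed with 5 transcripts, of which Trpv1-202 made up 98.6% ± 0.449 of its TPM in fasted and 98.1% ± 0.954 in fed libraries (SD, n = 3 each). Trpv1 alone held 29.2% of the summed TPM of the 9 genes and ranked 2415 of 15097 by level.

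Trpa1, the receptor for mustard oil and other reactive irritants, had 29.9, 32.8 and 30.7 TPM in fasted libraries and 36.5, 33.1 and 30.5 TPM in fed libraries. Fed library 1 was the highest and fasted library 1 the lowest, and the groups overlap. The log2 fold change was -0.09 (95% interval -0.26 to 0.07) with an adjusted limma p of 0.631, from means of 31.1 ± 1.53 TPM in fasted and 33.4 ± 2.99 TPM in fed libraries (SD, n = 3 each). Trpa1 lies at chr1:14872648-14918862 on the minus strand and has 2 listed transcripts, both protein coding. They differ inside the coding sequence by exon 20 (chr1:14885750-14885839, 90 bases, 30 codons), which Trpa1-201 holds and Trpa1-202 lacks. The sequences around it, from the GENCODE M21 transcripts on GRCm38, show this exon in capitals with 20 bases on each side, and the junction left without it:
Trpa1-201: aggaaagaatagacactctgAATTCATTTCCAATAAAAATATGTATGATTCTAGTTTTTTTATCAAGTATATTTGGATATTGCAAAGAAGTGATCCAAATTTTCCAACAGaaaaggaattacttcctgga
Trpa1-202: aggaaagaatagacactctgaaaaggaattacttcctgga
The form with the exon, Trpa1-201, held nearly all of the gene's estimated TPM. The transcripts also differ elsewhere, with 975 bases in all found only in Trpa1-201. Their shares therefore do not measure the use of exon 20 alone. Trpa1-201 had 27.5, 32.1 and 30.0 TPM in fasted and 35.4, 31.4 and 29.3 TPM in fed libraries, while Trpa1-202 had 2.33, 0.716 and 0.667 TPM in fasted and 1.11, 1.71 and 1.19 TPM in fed libraries. As a share, Trpa1-201 came to 95.9% ± 3.25 in fasted and 96.0% ± 1.08 in fed libraries (SD, n = 3 each), and fasted library 1 was the lowest of the 6 at 92.2%.

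Trpm3, a receptor for heat and for the steroid pregnenolone sulphate, was the steadiest of the 9 genes, with a coefficient of variation of 1.95% over the 6 libraries. It had 14.6, 13.9 and 14.7 TPM in fasted and 14.3, 14.3 and 14.4 TPM in fed libraries. The log2 fold change was 0.0090 (95% interval -0.11 to 0.13) with an adjusted limma p of 0.955, and its sign turned under 6 of the 19 alternatives. Trpm3 lies at chr19:22139046-22995410 on the plus strand with 24 listed transcripts, more than any other of the 9 genes, and 6 of these were at 0 in all libraries. Opposite-strand genes share 277 exonic bases (Gm27151, 4.81 TPM) and 351 exonic bases (C330002G04Rik, 0.200 TPM) with it, and the sources used here do not say whether strand was used in quantification.

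The protein-coding transcripts Trpm3-218 and Trpm3-201 passed a mean share of 10%. Trpm3-218 made up 58.3% ± 3.42 of the gene in fasted and 57.3% ± 4.17 in fed libraries (SD, n = 3 each). Trpm3-201 had 3.09, 2.02 and 2.68 TPM in fasted and 1.15, 2.65 and 1.66 TPM in fed libraries, which is 17.9% ± 3.37 of the gene in fasted and 12.7% ± 5.32 in fed libraries. The groups overlap, and the difference in share had an unadjusted limma p of 0.176 and an adjusted p of 0.901. The 2 transcripts share 23 exons and differ in several places, among them an exon of 36 bases, exon 13 of Trpm3-201 (chr19:22897484-22897519), which is in capitals here and skipped in Trpm3-218:
Trpm3-201: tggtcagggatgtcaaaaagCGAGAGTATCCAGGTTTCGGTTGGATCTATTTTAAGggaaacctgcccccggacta
Trpm3-218: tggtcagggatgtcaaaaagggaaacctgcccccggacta
Since other transcripts hold the rest of the gene's TPM, the use of this exon over the whole gene was not measured.

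Trpc5, another channel linked to cold sensing, was near the lower end of detection. It had 0.659, 0.499 and 0.673 TPM in fasted and 0.536, 0.609 and 0.686 TPM in fed libraries, with a mean of 0.610 TPM in each group. The exact permutation test gave p = 1.0. The gene lies at chrX:144381671-144688180 on the minus strand, and all of its TPM came from Trpc5-201.

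**Figure D3:**
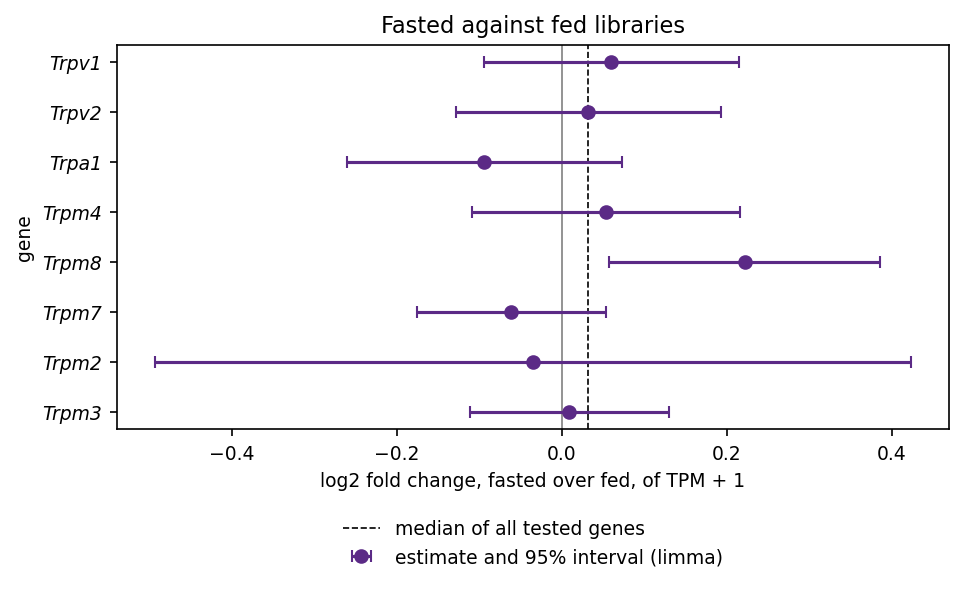
Log2 fold change of TPM + 1, fasted over fed (horizontal axis), for the 8 tested genes (rows); points are limma estimates, bars 95% intervals, and the dashed line marks the median of all tested genes at 0.03. Only the interval of Trpm8 (0.06 to 0.39) lies off 0, and that of Trpm2 (-0.49 to 0.42) is the widest.

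Among the channels with broader expression, Trpv2 was the most abundant. This channel, related to Trpv1 and known from larger sensory neurons and macrophages, had 66.3, 68.4 and 67.4 TPM in fasted and 73.8, 61.5 and 63.0 TPM in fed libraries. The fed values spread on both sides of the fasted ones, whose SD was 1.04 TPM against 6.69 TPM in fed libraries (n = 3 each). The log2 fold change was 0.03 (95% interval -0.13 to 0.19) with an adjusted limma p of 0.873, and its sign turned under 5 of the 19 alternatives. Macrophage genes summed lower in fasted libraries, as given above, and their part in the Trpv2 values was not tested.

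Trpv2 lies at chr11:62574486-62600515 on the plus strand and was divided among 3 transcripts. Trpv2-201 made up 42.4% ± 3.30 in fasted and 41.9% ± 6.58 in fed libraries, and Trpv2-202, with a coding sequence of the same length, 31.1% ± 3.49 in fasted and 31.7% ± 6.89 in fed libraries (SD, n = 3 each). Trpv2-203, a processed transcript of 1005 bases with no annotated coding sequence, held 26.2% ± 0.989 in fasted and 25.8% ± 0.804 in fed libraries. The spread between the coding forms was wide within groups: Trpv2-202 had 28.4 TPM in fed library 1 and 15.2 TPM in fed library 2.

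Trpm2, a calcium-permeable channel opened by ADP-ribose and oxidative stress, varied most among the 8 tested channels, with a coefficient of variation of 19.2% over the 6 libraries. It had 21.5, 22.2 and 13.4 TPM in fasted and 21.1, 15.6 and 20.9 TPM in fed libraries. Fasted library 3 and fed library 2 were low, and the groups overlap. The log2 fold change was -0.04 with a 95% interval of -0.49 to 0.42 and an adjusted limma p of 0.954. The low libraries were also those in which Trpm2-201, a short protein-coding transcript of 731 bases, was listed at 0. That transcript had 4.70, 5.52 and 0 TPM in fasted and 4.50, 0 and 4.90 TPM in fed libraries.

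The full-length protein-coding form, Trpm2-203 (7274 bases), did not follow that pattern. It had 3.78, 3.58 and 4.44 TPM in fasted and 3.42, 3.80 and 2.65 TPM in fed libraries, which is 22.3% ± 9.41 of the gene in fasted and 17.7% ± 5.97 in fed libraries (SD, n = 3 each; adjusted limma p of the share 0.942). The highest share belonged to Trpm2-202, a processed transcript with no annotated coding sequence, at 41.5% ± 8.68 in fasted and 41.2% ± 1.40 in fed libraries. Trpm2-209, a retained-intron transcript of 627 bases, held 8.99% ± 5.99 in fasted and 14.2% ± 5.69 in fed libraries. Trpm2 lies at chr10:77907722-77970563 on the minus strand.

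Trpm4, a channel opened by calcium that passes sodium and potassium but little calcium, had 22.7, 26.2 and 24.9 TPM in fasted and 25.2, 22.3 and 23.4 TPM in fed libraries. The groups overlap, and the log2 fold change was 0.05 (95% interval -0.11 to 0.22) with an adjusted limma p of 0.777. The transcript with the highest share was Trpm4-205, 685 bases long and annotated as a target of nonsense-mediated decay, the pathway that degrades RNAs with an early stop. It held 37.3% ± 4.38 of the gene in fasted and 38.2% ± 5.19 in fed libraries (SD, n = 3 each). The protein-coding forms followed, Trpm4-209 with 29.5% ± 3.10 in fasted and 31.0% ± 1.61 in fed libraries, and Trpm4-201 with 14.9% ± 4.76 in fasted and 14.4% ± 2.48 in fed libraries.

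The gene lies at chr7:45302632-45333780 on the minus strand. Trpm4-209 skips exon 3 (chr7:45327721-45327895) and exon 4 (chr7:45327272-45327452) of Trpm4-201 and joins exon 2 to exon 5 (chr7:45326977-45327140). The transcripts also differ elsewhere, with 642 bases found only in Trpm4-201 and 81 only in Trpm4-209, and over all differences the coding sequence of Trpm4-209 is 441 bases, or 147 codons, shorter. The junctions are shown with the last 20 bases of exon 2 in lower case and the first 20 bases of the exon that follows in capitals:
Trpm4-201: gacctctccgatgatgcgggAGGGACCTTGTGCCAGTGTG
Trpm4-209: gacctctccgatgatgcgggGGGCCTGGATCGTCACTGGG
The shorter coding form was the more abundant in every library, with 7.46, 7.50 and 6.68 TPM in fasted and 7.37, 7.01 and 7.60 TPM in fed libraries. Trpm4-201 had 4.34, 2.55 and 3.93 TPM in fasted and 4.28, 2.69 and 3.31 TPM in fed libraries. Neither share passed the test between the groups (adjusted limma p of 0.941 for Trpm4-209 and 1.00 for Trpm4-201).

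Trpm7, an ion channel fused to a protein kinase that carries magnesium, zinc and calcium into most cells, was lower in the fasted libraries without passing the test. It had 18.1, 19.0 and 19.0 TPM in fasted libraries, against 20.1, 19.3 and 19.3 TPM in fed libraries. The groups do not overlap, as for 5.07% of all tested genes in this direction, but the gap between the nearest libraries was small. The means were 18.7 ± 0.522 TPM in fasted and 19.6 ± 0.483 TPM in fed libraries (SD, n = 3 each), a log2 fold change of -0.06 (95% interval -0.18 to 0.05) with an adjusted limma p of 0.644 and an exact permutation p of 0.1. When only protein-coding transcripts were summed, Trpm7 had 17.5, 17.2 and 18.9 TPM in fasted and 17.1, 18.0 and 18.7 TPM in fed libraries, and the groups overlapped. For that sum the log2 fold change was -0.0066, with an unadjusted limma p of 0.914. Scaled to the pan-neuronal genes, the log2 fold change of Trpm7 was -0.13, with an unadjusted limma p of 0.0493 and an adjusted p of 0.594. Of the 19 alternatives, only this 1 gave Trpm7 an unadjusted limma p under 0.05.

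At chr2:126791565-126876230 on the minus strand, Trpm7 was read mainly as Trpm7-202 and Trpm7-201, whose coding sequences differ by a single codon. Exon 29 of Trpm7-202 starts 3 bases earlier (chr2:126805085-126805087), shown in capitals:
Trpm7-202: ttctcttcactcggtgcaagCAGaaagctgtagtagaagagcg
Trpm7-201: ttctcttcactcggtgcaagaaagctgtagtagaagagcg
The transcripts also differ elsewhere, with 122 bases in all found only in Trpm7-202. Their shares therefore do not measure the use of this codon alone. Trpm7-202 made up 74.9% ± 3.33 of the gene in fasted and 69.9% ± 3.61 in fed libraries. Trpm7-201 made up 19.8% ± 5.79 in fasted and 20.96% ± 4.28 in fed libraries (SD, n = 3 each). The share of Trpm7-202 had the smallest unadjusted limma p of the 17 tested TRP channel isoforms, 0.157, with an adjusted p of 0.901. In TPM, Trpm7-202 overlapped between groups, with 12.9, 14.4 and 14.8 TPM in fasted and 13.7, 13.0 and 14.3 TPM in fed libraries.

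No switch of isoform between fasted and fed mice was detected. In the 8 tested genes, 17 isoforms averaged at least 10% of their gene, and Trpc5 was left out. Of the 17, 0 passed adjustment and 0 had an unadjusted limma p under 0.05, where 0.0618% and 5.61% of all 24268 tested isoforms did. The groups were apart for 0 of the 17, against 10.6% of all tested isoforms. 4 genes had a single isoform above 90% of their TPM (Trpv1, Trpa1, Trpm8 and Trpc5), while Trpv2, Trpm2, Trpm3, Trpm4 and Trpm7 were divided among several. Of the 72 listed transcripts, 57 were above 0 in at least 1 library and 15 were at 0 in all.

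**Figure D4:**
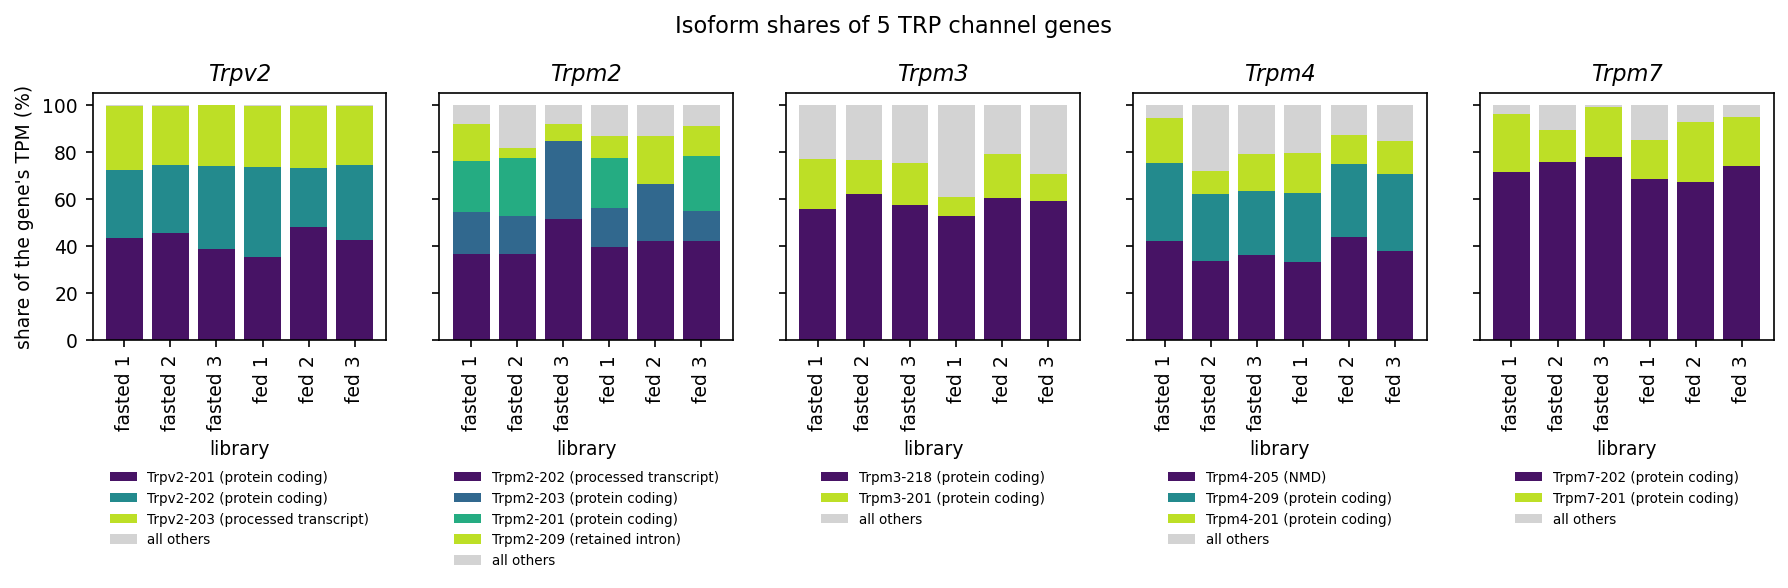
Share of the gene's TPM (vertical axis, %) held by each isoform that averaged at least 10%, for the 5 genes divided among several isoforms; bars are libraries, fasted left of fed, and grey is all other transcripts. None of the shown shares passed the test between groups, and Trpm2-201 is missing from fasted library 3 and fed library 2.

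The order of the 9 genes by level was Trpv1 (82.7 TPM over the 6 libraries), Trpv2 (66.7 TPM), Trpa1 (32.2 TPM), Trpm4 (24.1 TPM), Trpm8 (24.1 TPM), Trpm7 (19.1 TPM), Trpm2 (19.1 TPM), Trpm3 (14.4 TPM) and Trpc5 (0.610 TPM). The ranges of neighbours did not overlap from Trpv1 down to Trpm4, nor between Trpm3 and Trpc5. They overlapped between Trpm4 and Trpm8, Trpm8 and Trpm7, Trpm7 and Trpm2, and Trpm2 and Trpm3, so these steps are not larger than the spread between libraries. Within a library, Trpm8 still lay above Trpm7 in 6 of 6.

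That order depended on which transcripts were summed. Protein-coding transcripts made up all or nearly all of the TPM of Trpv1, Trpa1, Trpm8 and Trpc5, but 38.3% for Trpm2, 44.7% for Trpm4 and 73.6% for Trpv2. With protein-coding transcripts alone, a setting chosen after seeing the data, Trpm4 averaged 10.8 TPM and Trpm2 7.32 TPM, and Trpm8 with 24.1 TPM then came next after Trpa1. Only Trpm4 and Trpm2 then overlapped among neighbours. Trpm2 had a log2 fold change of 0.19 on that basis, the opposite sign, with an unadjusted limma p of 0.543.

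**Figure D5:**
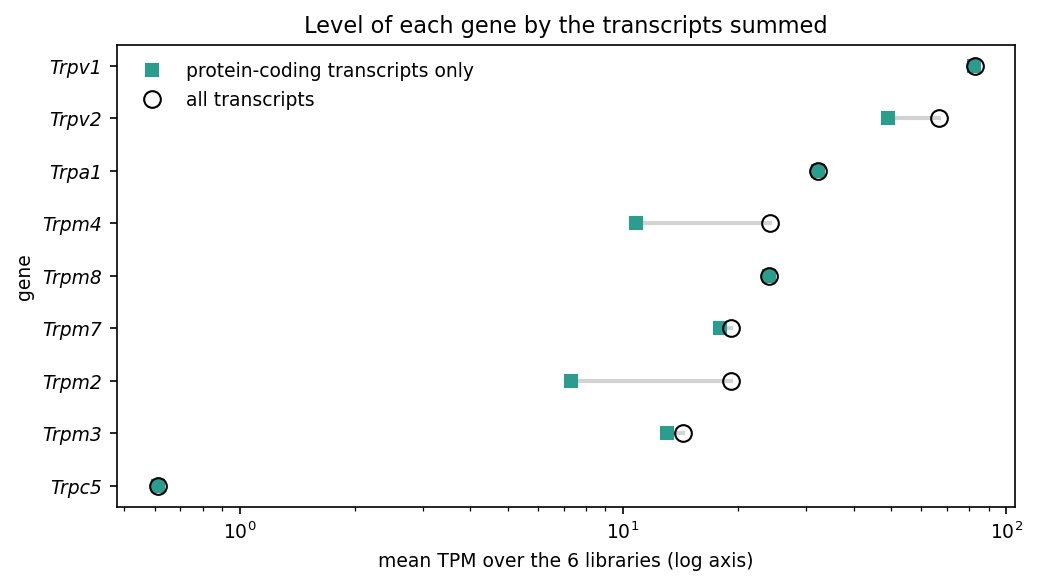
Mean level over the 6 libraries in TPM (horizontal log axis) of each gene (rows), from protein-coding transcripts only (squares) and from all transcripts (circles). Trpm2 (7.32 against 19.1 TPM) and Trpm4 (10.8 against 24.1 TPM) differ most between the sums as a ratio, the distance on the log axis.

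The rest of the TRP family was examined in the same fit. Of 19 other family genes, 8 averaged at least 1 TPM, with estimates higher in fasted libraries for 4 and lower for 4, and 0 had an unadjusted p under 0.05. Their median log2 fold change was 0.02, as for the 8 tested channels. Mcoln1, the lysosomal TRP channel, had 64.1 ± 3.48 TPM in fasted and 62.6 ± 4.98 TPM in fed libraries. Trpc1 had 25.0 ± 1.35 TPM in fasted and 23.0 ± 1.76 TPM in fed libraries, and Trpc6, gated by diacylglycerol, had 13.2 ± 0.354 TPM in fasted and 13.6 ± 1.16 TPM in fed libraries (SD, n = 3 each). Trpc4 had the smallest p of the 8, with 3.55, 4.65 and 3.71 TPM in fasted and 3.03, 2.71 and 3.54 TPM in fed libraries, apart by a narrow gap (log2 fold change 0.28, unadjusted limma p of 0.0611, adjusted p of 0.514). Trpv5, an epithelial calcium channel, was listed at 0 in all 6 libraries.

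Genes that regulate TRP channels through phosphorylation, phosphoinositides or direct binding did not pass the test either. Of 26 listed, 25 were tested, with estimates higher in fasted libraries for 16 and lower for 9, 0 with an unadjusted p under 0.05, and 6 apart, all higher, where 12.7% of all tested genes were apart and higher. Their median log2 fold change was 0.03, that of all tested genes. The smallest p belonged to Cdk5r1, the activator of the kinase Cdk5 that phosphorylates Trpv1, with 32.6 ± 0.486 TPM in fasted and 30.3 ± 1.43 TPM in fed libraries (log2 fold change 0.10, adjusted limma p of 0.519). Next came Ppp3ca, the catalytic subunit of calcineurin, with 425.7 ± 5.55 TPM in fasted and 400.2 ± 19.5 TPM in fed libraries (log2 fold change 0.09, adjusted limma p of 0.520; SD, n = 3 each). The pan-neuronal genes had a median log2 fold change of 0.06, and the part of neuronal RNA content in these values was not tested.

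Receptors that act upstream of TRP channels in inflammation and itch were also close to the background. Of 24 listed, 19 were tested, with estimates higher in fasted libraries for 12 and lower for 7, 0 past adjustment, and a median log2 fold change of 0.02. The gene with the smallest p was Ccr2, a chemokine receptor known from monocytes as well as neurons. It had 2.01, 2.91 and 2.07 TPM in fasted and 3.92, 2.84 and 4.52 TPM in fed libraries, which overlap (log2 fold change -0.51, unadjusted limma p of 0.0188, adjusted p of 0.478). The 13 macrophage marker genes also had lower estimates in fasted libraries (median log2 fold change -0.39), and their part in this value was not tested. Crlf2, a subunit of the receptor for the itch cytokine TSLP, had 18.7 ± 0.737 TPM in fasted and 20.6 ± 1.03 TPM in fed libraries, and Il31ra, a subunit of the interleukin-31 receptor, had 20.5 ± 1.19 TPM in fasted and 22.5 ± 0.459 TPM in fed libraries (SD, n = 3 each). Each had a log2 fold change of -0.13, with adjusted limma p of 0.502 for Crlf2 and 0.506 for Il31ra.

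Genes whose pattern over the 6 libraries was nearest to a channel were found by the root mean square difference of centred log2(TPM + 1) values among 10970 genes. For Trpm8 these were Ppat (0.0144), Ptk2b (0.0216) and Nek3 (0.0251), where Trpm8 itself deviated by 0.135 from its mean and the median gene was 0.130 away. For Trpv1 they were Pcmtd2 (0.0212), Psme1 (0.0227) and Ptprr (0.0232), and for Trpa1 they were Slc7a7 (0.0238), Sdc1 (0.0302) and Krba1 (0.0313). With 6 libraries and so many genes some close matches are always found, so these distances are a description only.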

How the data were processed

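The authors deposited TPM per transcript. The submitters' processing notes name Salmon 1.6.0, DESeq2 1.34.0, Trim Galore 0.6.6 and FastQC 0.11.9, and the builds GRCm38 and mm10; their roles and the annotation release are not given in the sources used here. Each library sums to 1000000 TPM, so depth is unknown and no count test was run. TPM is a share, so more of some transcripts lowers the rest.

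TPM were summed per gene symbol, and genes averaging at least 1 TPM were compared on log2(TPM + 1), which understates changes of low genes. limma 3.58.1 in R 4.3.3 was used (group as the only term, trended empirical Bayes, two-sided, Benjamini-Hochberg adjustment over all tested features, threshold 0.05). Transcript levels were tested likewise, and isoform shares after an arcsine square root. The gene fit alone was also run on simulated data in which 200 genes were changed, and the outcome is not given here. Transcript types, coordinates and sequences are from GENCODE M21 (GRCm38), which held 98.7% of the deposited transcript versions. Python 3.11.15 was used for summaries.

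The members and lists were chosen with earlier results of these data known. Named are all members, their transcripts of at least 10% share, the 4 most abundant other TRP genes and the 1 with the smallest p, the 3 regulators and 3 receptors with the smallest p, the 2 most abundant genes of each cell type list, and the 3 genes nearest in pattern to Trpv1, Trpa1 and Trpm8. Overlapping genes, and short transcripts below 10% share, were named after their values were seen. A few genes that this rule would name are not reported here.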

Additional observations from a re-analysis of the deposited data

How the results depend on the processing

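No TRP channel gene passed adjustment under 19 alternatives, no transcript under 8 and no isoform share under 9; other scalings, array weights and robust fits were run for gene levels only. Without single libraries, 0 to 2 of the 8 genes had an unadjusted limma p under 0.05, and 2 did with scaling to pan-neuronal genes, where the median of the 8 was -0.049. As reported, 8 other TRP, 25 regulator and 19 receptor genes were tested. Of these, 1 had an unadjusted limma p under 0.05, where 9.94% of all tested genes had one. Under the alternatives 0 to 7 did, with 7 without fed replicate 3 or with pan-neuronal scaling and 6 with quantile normalization. The share of all tested genes under each alternative is not given here, so these counts cannot be set against it. Counts over all features moved too. All genes called were 2 with a pseudocount of 0.5 or 0.1, 0 without a filter or with protein-coding transcripts only, and 1 to 6 without single libraries. All transcripts called, 9 as reported, were 0 with the replicate block and 4 to 15 without single libraries. All isoform shares called, 15 as reported, were 5 on the plain percent scale, 0 with the replicate block and 11 to 31 without single libraries. Small estimates turned sign: Trpm3 to -0.02 with median-of-ratios, TMM-type or no-mitochondrial scaling (-0.02055, -0.01965 and -0.02173), -0.0056 with quantile and -0.058 with pan-neuronal scaling, and -0.0058 to 0.032 without single libraries; Trpv2 to -0.00022 with quantile, -0.00057 with no-mitochondrial and -0.039 with pan-neuronal scaling, and -0.017 to 0.11 without single libraries; Trpv1 to -0.011 and Trpm4 to -0.016 with pan-neuronal scaling; Trpv1 ranged from -0.0030 to 0.11 and Trpm2 from -0.17 to 0.19 without single libraries, and Trpm2 was 0.19 with protein-coding transcripts only. The cause was not tested.

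Same-numbered fasted and fed libraries had correlations of 0.0929, 0.114 and 0.0662 in their deviations, so the numbers were not taken as pairs, although each library correlated best with its own number. With the replicate block, Trpm8 had an unadjusted limma p of 0.0161 and an adjusted p of 0.429. With 3 libraries a group and no depth, small differences could not be detected. An interval off 0 did not suffice either, since that of Trpm8 was 0.06 to 0.39 with an adjusted limma p of 0.476 as reported.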

Other observations

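Several short or intron-retaining transcripts of the TRP channel genes were listed at 0 in some libraries and at several TPM in others. Trpm4-203, a nonsense-mediated decay transcript of 609 bases, had 5.57 TPM in fasted library 2 and 0 in the other 5 libraries. A retained-intron transcript of Trpm4, 625 bases long, had 0, 0 and 3.70 TPM in fasted and 3.73, 1.57 and 2.38 TPM in fed libraries. Trpm7-207, a retained-intron transcript of 574 bases, had 0, 1.88 and 0 TPM in fasted and 2.95, 0 and 0 TPM in fed libraries. These values enter the gene sums of Trpm4 and Trpm7, and the groups overlap for each of the 3 transcripts.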
